A study of Mus musculus with 24 samples.

Results

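Amino acid transporters are membrane proteins that carry amino acids across the plasma membrane and the lysosomal membrane. The transcripts of 10 of them, chosen by gene symbol out of the 56748 genes of the deposited count table, were followed across all 8 groups of a study of muscle cells and the hormone aldosterone. All 10 passed the filter on low counts in every comparison. The 24 libraries, 3 per group, were bulk RNA sequencing of primary cells grown from the hindlimb muscle of mice under 5 days of age. The mice were C57BL/10 (called C57 here) or C57BL/10-Dmdmdx (called mdx), the same strain carrying a mutated dystrophin gene. Myotubes arise when myoblasts fuse into cells with many nuclei, and here they received 1 µM aldosterone or 0.001% DMSO for 48 h in medium with charcoal-stripped horse serum. Fresh medium without the hormone then replaced it, was collected after 15 h, and the myotubes were lysed. Fibroblasts of the same genotype received that conditioned medium for 24 h. The genotype of a fibroblast and that of the myotubes that conditioned its medium therefore cannot be told apart. Before treatment the myotubes had grown in Ham's F10 with horse serum and the fibroblasts in DMEM with fetal bovine serum. Those media differ in their amino acids, and the growth medium and the cell type cannot be told apart.

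These transporters work as partners. Slc7a5 encodes LAT1, a light chain that exchanges large neutral amino acids such as leucine, and Slc3a2 encodes CD98, the heavy chain that LAT1 and the cystine/glutamate exchanger xCT (Slc7a11) need to reach the plasma membrane. Slc7a1 and Slc7a3 encode CAT1 and CAT3, carriers of arginine and lysine. Slc38a2 encodes SNAT2, a sodium-coupled importer of small neutral amino acids. Slc1a4 and Slc1a5 encode ASCT1 and ASCT2, sodium-dependent exchangers of neutral amino acids, and ASCT2 is known for carrying glutamine. Slc43a2 encodes LAT4, which lets branched-chain amino acids and phenylalanine out of or into the cell by facilitated diffusion, and Slc38a9 encodes a lysosomal protein that signals arginine to mTORC1, the kinase complex that couples amino acid supply to growth. Several of these genes are known targets of ATF4, the transcription factor of the amino acid stress response.

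Libraries held 14133165 to 31144746 counts in myotubes and 16964960 to 42698139 counts in fibroblasts. Dmd was lower in every mdx library than in every C57 library of the same cell type (331 to 462 against 32.6 to 64.8 CPM in myotubes). Summed levels of 10 skeletal muscle markers were 19797 to 35626 CPM in myotubes and 14.9 to 139 CPM in fibroblasts. The 10 fibroblast markers summed to 17141 to 30441 CPM in fibroblasts, 309 to 1036 CPM in C57 myotubes and 1079 to 4465 CPM in mdx myotubes, with Tcf21 at 0 in all 8 groups and Lum also at 0 in aldosterone-treated C57 myotubes. The 10 leukocyte markers summed to 12.8 and 13.2 CPM in C57 myotube culture 1 and to 209.98 to 469 CPM in C57 cultures 2 and 3. They summed to 4.64 to 193 CPM in mdx myotubes. The part of such cells in the results was not tested, and in bulk RNA fewer cells of a type and less RNA per cell cannot be told apart. The mdx myotube culture numbered 1 stood above the other 2 for most transporters. Levels are CPM, counts scaled to a common library total, with TMM factors within a cell type, and mean ± SD is over n = 3 libraries. The labels call these biological replicates and do not name their source animals, so p-values measure the spread between these cultures. The quasi-likelihood test of edgeR was adjusted by Benjamini and Hochberg over all genes tested, and passing means an adjusted p under 0.05. Log2 changes carry standard errors (SE).

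The promoters of 3 members are shown because the results below turn on them: Slc7a11 and Slc7a1, higher after aldosterone in paired myotube cultures, and Slc38a9, lower in mdx cells. Each is the 250 bases before the start site from RefSeq on GRCm38.p6, read 5′ to 3′ on the gene's strand. Promoters were matched for 7 of the 10 members (9 start sites), and Slc7a5, Slc7a3 and Slc1a5 had no entry. The windows are chr3:50443614-50443863 (minus strand), chr5:148399905-148400154 (minus strand, the farther upstream of 2 starts) and chr13:112660516-112660765 (plus strand). Capitals mark matches, on either strand, to the amino acid response element TGATGNAA or the antioxidant response element TGACNNNGC.
Slc7a11: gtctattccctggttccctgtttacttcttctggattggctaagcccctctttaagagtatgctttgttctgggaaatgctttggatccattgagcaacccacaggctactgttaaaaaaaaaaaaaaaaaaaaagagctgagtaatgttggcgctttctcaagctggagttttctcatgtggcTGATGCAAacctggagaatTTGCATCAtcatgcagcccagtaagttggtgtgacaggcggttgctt
Slc7a1: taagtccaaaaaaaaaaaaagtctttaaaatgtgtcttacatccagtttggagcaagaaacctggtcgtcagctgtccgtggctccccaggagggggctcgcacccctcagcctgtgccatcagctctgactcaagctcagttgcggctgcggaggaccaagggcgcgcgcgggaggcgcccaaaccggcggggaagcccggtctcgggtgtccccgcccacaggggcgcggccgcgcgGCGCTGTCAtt
Slc38a9: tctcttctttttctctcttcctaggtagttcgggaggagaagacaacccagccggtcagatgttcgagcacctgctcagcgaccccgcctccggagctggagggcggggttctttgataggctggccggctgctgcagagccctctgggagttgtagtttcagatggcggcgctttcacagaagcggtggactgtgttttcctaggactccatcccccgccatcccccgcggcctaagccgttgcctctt

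Slc7a11 held 2 matches to TGATGNAA on opposite strands, TGATGCAA at positions -66 to -59 and TTGCATCA at -47 to -40 from the start site. That motif, which ATF4 is known to bind, occurred in 3.45% of all 32851 promoter windows of this length. Slc7a1 held 1 match to TGACNNNGC on the reverse strand at -11 to -3, and Slc38a2 held 1 at -27 to -19, beside 10.2% of all windows. The matches did not overlap each other. No window of the 7 matched members held the full palindromic steroid receptor (glucocorticoid and mineralocorticoid) response element (0.00913% of all windows) or CACGTG (6.02%). A match describes letters only.

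**Figure D1:**
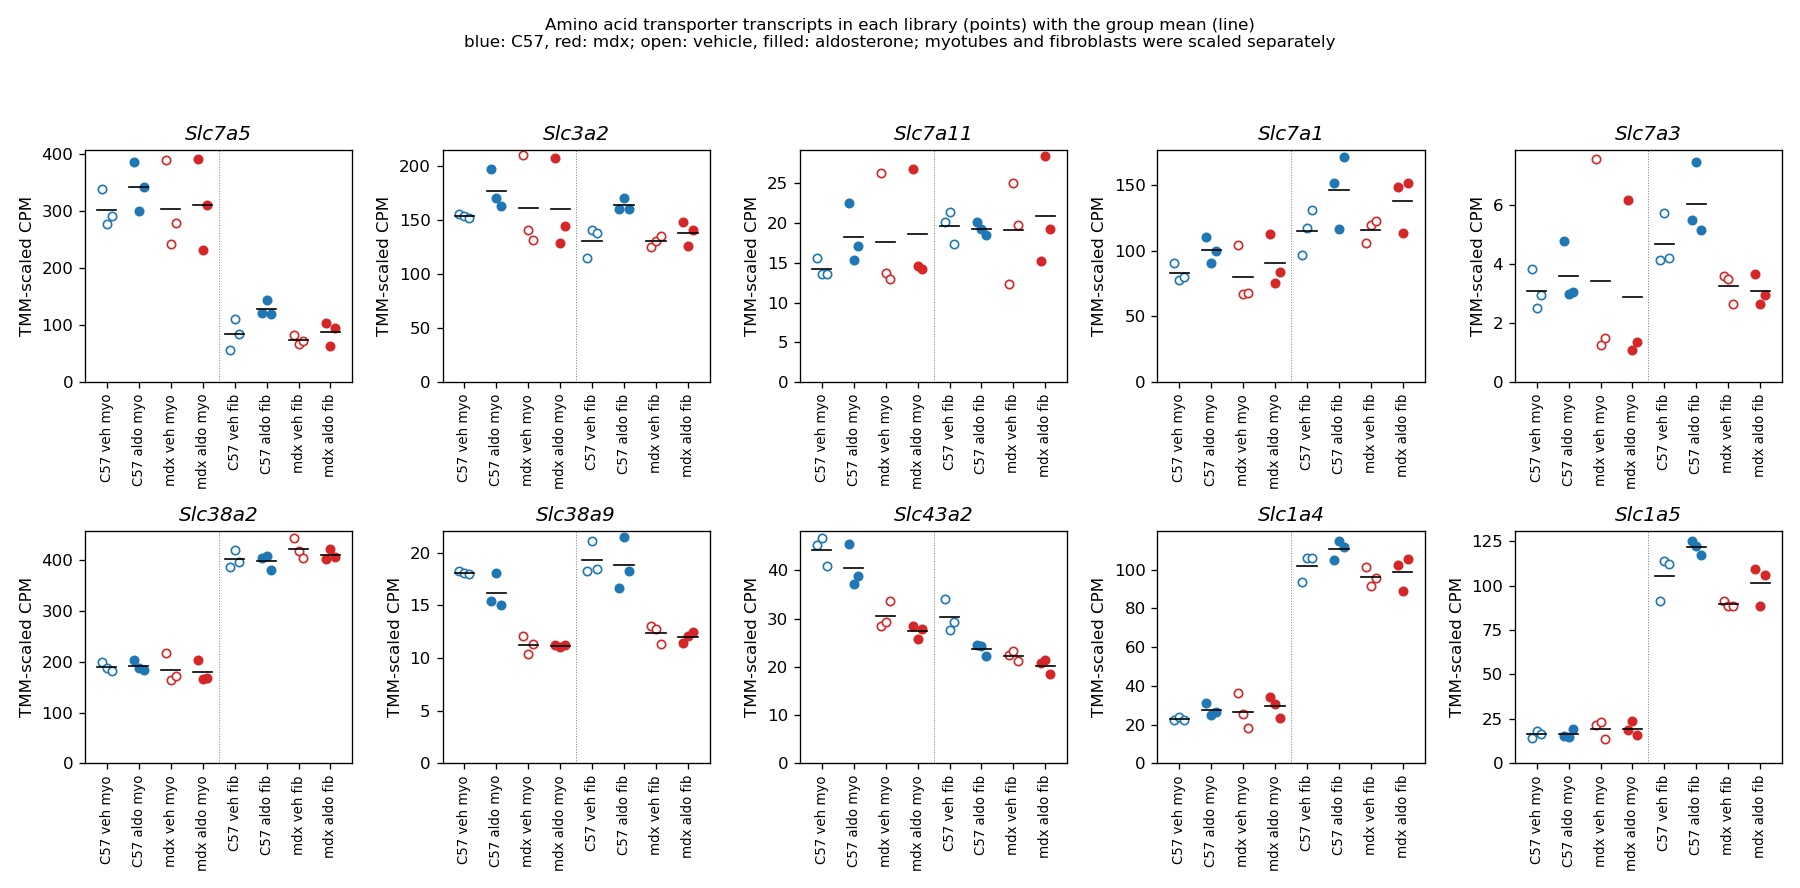
TMM-scaled CPM (vertical axes) of each of the 10 transporter genes in the 8 groups (horizontal axes); points are libraries and lines are means of 3. Slc1a4 and Slc1a5 sit far higher in all 12 fibroblast libraries than in the myotubes, and Slc38a9 sits lower in every mdx library than in every C57 library. In myotubes, mdx culture 1 (left red point of each group) stands above the other mdx cultures for 8 of the 10 genes, Slc7a3 and Slc7a11 among them. For Slc38a9 the margin with aldosterone is slight, and the share of all genes was not counted.

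The transporters ranked differently in the cell types. On the deposited FPKM scale, which divides by gene length and so allows genes to be set side by side, Slc7a5 was the highest of the 10 in all 4 myotube groups. It averaged 88.0 ± 9.51 FPKM in C57 vehicle myotubes, followed by Slc3a2 at 46.9 ± 0.838 FPKM and Slc38a2 at 23.1 ± 1.26 FPKM. Slc7a1, Slc1a4, Slc43a2 and Slc1a5 lay between 4.23 and 7.75 FPKM there, and Slc38a9, Slc7a11 and Slc7a3 between 0.882 and 1.17 FPKM, where neighbours in the order overlapped in their spread. In vehicle medium fibroblasts Slc38a2 led, at 41.3 ± 1.70 FPKM in C57 and 43.5 ± 1.79 FPKM in mdx. Slc3a2 followed at 33.7 ± 3.66 FPKM in C57. Slc1a4 (23.6 ± 1.65 FPKM), Slc1a5 (23.0 ± 2.72 FPKM) and Slc7a5 (20.5 ± 6.59 FPKM) came next and did not differ beyond their spread.

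Myotubes and fibroblasts under vehicle were compared to ask how the transporter set differs between the cell that receives the hormone and the cell that receives its medium. In both genotypes the same 3 of 10 were higher in myotubes (Slc7a5, Slc3a2 and Slc43a2) and the same 3 were lower (Slc38a2, Slc1a4 and Slc1a5). Of all 17435 genes tested, 74.7% passed in C57 and 70.9% in mdx, so a share of 6 of 10 lay below the background. By direction, 37.5% were higher and 37.2% lower in C57 myotubes, and 36.2% and 34.7% in mdx. The members' median log2 change was -0.24 in C57 and 0.11 in mdx, beside 0 and -0.0052 over all genes. The 7 endothelial markers summed to 74.8 to 168 CPM in C57 myotubes and 4.84 to 6.75 CPM in C57 fibroblasts (29.4 to 39.9 and 6.28 to 7.59 CPM in mdx). For the 6 Schwann cell markers the sums were 126 to 158 and 10.2 to 15.5 CPM (97.2 to 142 and 7.99 to 11.4 CPM in mdx). The part of such cells in this comparison was not tested.

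The leucine exchanger showed the largest rise of the set in myotubes. Slc7a5 (ENSMUSG00000040010, chromosome 8, 122607889 to 122634433, minus strand on mm39, like the positions below) lay at 98.8, 80.9 and 84.2 FPKM in the 3 C57 vehicle myotube libraries and at 13.8, 27.0 and 20.6 FPKM in the C57 vehicle medium fibroblasts. In mdx the values were 111, 68.9 and 81.8 FPKM in myotubes and 20.2, 16.7 and 17.7 FPKM in fibroblasts. All myotube libraries were above all fibroblast libraries. With both cell types scaled together, the C57 level was 331 ± 35.9 against 78.0 ± 24.7 CPM (log2 change 2.09, SE 0.24, adjusted p = 1.32e-05) and 331 ± 85.9 against 68.8 ± 6.19 CPM in mdx (log2 change 2.27, SE 0.24, adjusted p = 8.94e-06). Its heavy chain partner Slc3a2 (ENSMUSG00000010095, chromosome 19, 8684246 to 8700733, minus strand) differed far less, with 168 ± 2.79 against 122 ± 12.5 CPM for C57 (log2 change 0.46, SE 0.15, adjusted p = 0.0136) and 175 ± 47.6 against 121 ± 6.47 CPM in mdx (log2 change 0.53, SE 0.15, adjusted p = 0.00665). The C57 call for Slc3a2 was lost without the filter on low counts (adjusted p = 0.0537) and without C57 vehicle medium fibroblast replicate 1 (log2 change 0.35, adjusted p = 0.0761). The ratio of Slc7a5 to Slc3a2 on the FPKM scale was 1.64 to 2.07 in the 12 myotube libraries and 0.468 to 0.805 in the 12 fibroblast libraries, with no overlap.

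Slc7a5 was also the main transcript among the light chains that pair with CD98. Over 6 of them (Slc7a5, Slc7a6, Slc7a7, Slc7a8, Slc7a10 and Slc7a11), Slc7a5 made up 84.4% to 90.8% of the summed FPKM in myotubes and 54.6% to 75.7% in fibroblasts. The sum of the 6 light chains was 1.93 to 2.37 times the heavy chain in myotubes and 0.827 to 1.08 times in fibroblasts. Slc7a8, which encodes the light chain LAT2, was 6.46 to 7.43 FPKM in C57 vehicle myotubes and 0.111 to 0.187 FPKM in C57 vehicle medium fibroblasts. Slc7a6 was in contrast 4.75 to 5.48 FPKM and 8.27 to 8.73 FPKM, and Slc7a7 0.441 to 0.924 FPKM and 1.58 to 1.73 FPKM. These are transcript levels, and no protein was measured.

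**Figure D2:**
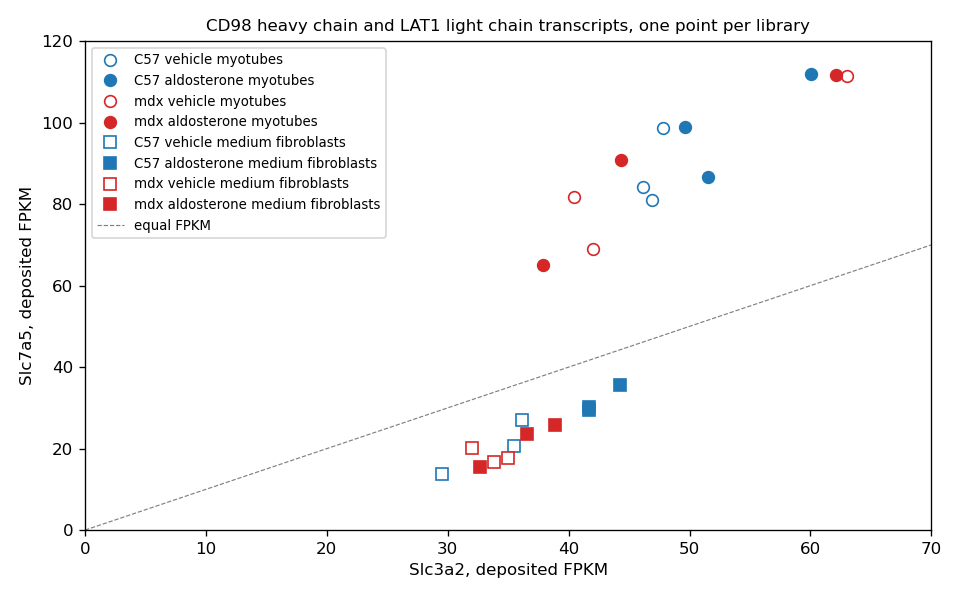
Deposited FPKM of Slc7a5 (vertical axis) against Slc3a2 (horizontal axis), a point per library (circles myotubes, squares fibroblasts, open vehicle, filled aldosterone). The 12 myotube libraries lie above the line of equal FPKM, with ratios of 1.64 to 2.07, and the 12 fibroblast libraries below it, with ratios of 0.468 to 0.805.

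The sodium-coupled carriers ran the other way. Slc1a5 (ENSMUSG00000001918, chromosome 7, 16515265 to 16532199, plus strand) lay at 3.75, 4.70 and 4.22 FPKM in C57 vehicle myotubes and at 19.8, 24.7 and 24.4 FPKM in C57 vehicle medium fibroblasts. The log2 change of myotubes against fibroblasts was -2.46 in C57 (SE 0.16, adjusted p = 4.5e-08) and -1.96 in mdx (SE 0.16, adjusted p = 3.64e-07). Slc1a4 (ENSMUSG00000020142, chromosome 11, 20252180 to 20282713, minus strand) lay at 6.13, 6.57 and 6.09 FPKM and 21.7, 24.5 and 24.5 FPKM in the same groups. It was lower in myotubes by a log2 change of -1.93 in C57 (adjusted p = 1.82e-06) and -1.60 in mdx (adjusted p = 9.91e-06). Slc38a2 (ENSMUSG00000022462, chromosome 15, 96585273 to 96597611, minus strand) lay at 24.5, 22.9 and 22.0 FPKM against 39.8, 43.1 and 40.9 FPKM, with a log2 change of -0.85 in C57 (adjusted p = 5.7e-06) and -0.96 in mdx (adjusted p = 2.36e-06). For these 3 genes the libraries of the cell types did not overlap in either genotype. Slc43a2 (ENSMUSG00000038178, chromosome 11, 75422520 to 75468401, plus strand), the LAT4 gene, was higher in myotubes, at 48.5 ± 3.46 against 28.3 ± 3.32 CPM in C57 (log2 change 0.77, adjusted p = 1.22e-05) and 33.3 ± 3.15 against 20.8 ± 1.04 CPM in mdx (log2 change 0.68, adjusted p = 5.92e-05).

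The cystine and cationic carriers and the lysosomal sensor did not pass between the cell types. Slc7a11 (ENSMUSG00000027737, chromosome 3, 49846975 to 50398063, minus strand) had a log2 change of -0.23 in C57 and 0.12 in mdx, and Slc7a1 (ENSMUSG00000041313, chromosome 5, 148264220 to 148336714, minus strand) of -0.24 and -0.31. Slc7a3 (ENSMUSG00000031297, chromosome X, 100122816 to 100129626, minus strand) had -0.37 and 0.42, and Slc38a9 (ENSMUSG00000047789, chromosome 13, 112797285 to 112875283, plus strand) had 0.14 and 0.10, with adjusted p-values of 0.121 to 0.726 over these 8 tests. Without mdx vehicle myotube replicate 1, which is described below, Slc7a1 (log2 change -0.56, adjusted p = 0.00122) and Slc7a3 (log2 change -1.01, adjusted p = 0.00776) were lower in mdx myotubes than in mdx fibroblasts. Annotated genes overlap 3 members, and the library kit did not mark strand. Slc7a11 overlaps 5, Slc38a9 2 and Slc43a2 2, and the most counted of them held 71, 289 and 384 counts over all libraries beside 11495, 8983 and 17536 for the members.

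The other transporters of the plasma membrane and lysosome, a list of 46 genes, mostly ran lower in myotubes: of 29 tested, 7 were higher and 18 lower in C57, and 7 and 19 in mdx. Of all genes 37.5% were higher and 37.2% lower in C57, so the counts of this list and the next ones are read beside 74.7% in either direction. Slc7a8 had a log2 change of 5.39 (adjusted p = 7.19e-09) and Slc1a3, a glutamate importer, of -6.45 (adjusted p = 3.24e-08) in C57. Slc6a17 and Slc36a4 had -1.74 and -1.49. Of 39 genes of amino acid sensing by mTORC1, 20 were higher and 14 lower in C57 myotubes, led by the Rag GTPase gene Rragd at 163 ± 18.8 against 7.69 ± 1.29 CPM (log2 change 4.39, adjusted p = 2.2e-10). Of 18 genes of cystine, glutathione and NRF2, 3 were higher and 12 lower, and the quinone reductase gene Nqo1 lay at 68.4 ± 12.3 against 615 ± 80.5 CPM. Of 15 tested genes of arginine and polyamine use, 9 were higher and 3 lower, among them Gatm, the first enzyme of creatine synthesis, at 109 ± 6.34 against 1.12 ± 0.336 CPM. Of 14 genes of glutamine, glutamate and branched-chain amino acid use, 9 were higher and 3 lower, with glutamine synthetase Glul at 108 ± 3.17 against 34.0 ± 1.11 CPM. The 10 tested mitochondrial carriers gave 2 higher and 5 lower, and the 22 genes of the amino acid response gave 10 higher and 9 lower.

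The comparison of mdx with C57 asked which transporters differ between the lines in each cell type. The arginine sensor Slc38a9 was lower in mdx in both cell types and under both treatments, and the LAT4 gene Slc43a2 was lower in mdx in 3 of the 4 comparisons. No other member passed except Slc7a3 in 1 comparison. In each of the 4 comparisons 2 of 10 members passed, both lower, beside 0.222% and 0.19% of all genes lower in myotubes and 0.588% and 0.636% in fibroblasts (under vehicle and aldosterone). In either direction the shares were 0.362%, 0.311%, 1.1% and 1.23%. Of 14627 genes tested in all 4 comparisons, 10 were lower in mdx in each and 8 higher in each, and Slc38a9 was the 1 member among them. The summed fibroblast markers, given above, were higher in every mdx myotube library than in every C57 one. The 7 endothelial markers were lower in every mdx myotube library. They summed to 74.8 to 168 CPM with vehicle and 100 to 225 CPM with aldosterone in C57, and to 29.4 to 39.9 and 28.5 to 64.4 CPM in mdx. The log2 change of vehicle myotubes against fibroblasts, in C57 and mdx, was 0.14 and 0.10 for Slc38a9 and 0.77 and 0.68 for Slc43a2. The 10 skeletal muscle markers summed to 30701 to 35626 CPM with vehicle and 29636 to 33149 CPM with aldosterone in C57 myotubes. In mdx myotubes they summed to 21528 to 31732 and 19797 to 30798 CPM, ranges that overlap those of C57. The part of fibroblasts, endothelial cells, leukocytes and the muscle content of the cultures in the line comparisons was not tested. The members' median log2 change was 0.04 and -0.14 in myotubes and -0.13 and -0.23 in fibroblasts (under vehicle and aldosterone), and over all genes it was -0.00073, -0.015, 0.0046 and 0.0072.

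Slc38a9 lay at 18.3, 18.1 and 18.0 CPM in C57 vehicle myotubes and at 12.1, 10.4 and 11.4 CPM in mdx (log2 change -0.68, SE 0.10, adjusted p = 0.0112). With aldosterone it lay at 15.5, 18.1 and 15.0 CPM in C57 and 11.3, 11.0 and 11.2 CPM in mdx myotubes (log2 change -0.54, SE 0.10, adjusted p = 0.0459). The mdx libraries were below every C57 library in both. In fibroblasts with vehicle medium C57 had 18.3, 21.1 and 18.4 CPM and mdx had 13.0, 12.7 and 11.4 CPM (log2 change -0.64, SE 0.10, adjusted p = 0.00504). With aldosterone medium it lay at 16.7, 21.5 and 18.3 CPM and 11.5, 12.1 and 12.5 CPM (log2 change -0.64, SE 0.10, adjusted p = 0.00528). The gap was of similar size in each, and again no libraries overlapped. These rest on 148 to 730 counts per library. The fibroblast calls held in all 10 settings tried without a replicate block, with adjusted p up to 0.0357. In vehicle myotubes the call held in 8 of 11 settings and was lost without C57 replicate 2 (adjusted p = 0.0559), C57 replicate 3 (0.0625) or mdx replicate 2 (0.0662). In aldosterone-treated myotubes it held in 3 of 11 and was lost whichever of the 6 libraries was left out (adjusted p up to 0.212, log2 change -0.59 to -0.45 over the 11).

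Slc43a2 lay at 45.2, 46.7 and 40.8 CPM in C57 and 28.5, 29.4 and 33.6 CPM in mdx vehicle myotubes (log2 change -0.54, SE 0.10, adjusted p = 0.0381). With aldosterone the values were 45.5, 37.1 and 38.9 CPM and 28.4, 25.8 and 27.8 CPM (log2 change -0.56, SE 0.10, adjusted p = 0.0381). In fibroblasts with vehicle medium they were 34.1, 27.7 and 29.2 CPM and 22.4, 23.3 and 21.3 CPM (log2 change -0.44, SE 0.09, adjusted p = 0.0228). No mdx library reached the lowest C57 library in these 3 comparisons. With aldosterone medium the values were 24.5, 24.4 and 22.2 CPM in C57 and 20.8, 21.4 and 18.5 CPM in mdx, which also did not overlap but did not pass (log2 change -0.22, SE 0.09, adjusted p = 0.274). The call in vehicle myotubes was lost without any 1 library except mdx replicate 3 (adjusted p 0.0893 to 0.195). The call in aldosterone-treated myotubes was lost without any 1 of the 6 libraries (adjusted p 0.0659 to 0.191). In fibroblasts with vehicle medium it was lost without C57 replicate 1 (adjusted p = 0.0956), mdx replicate 2 (0.0576) or mdx replicate 3 (0.105). The direction was lower in mdx in every setting tried.

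The cationic carrier gene Slc7a3 was lower in mdx fibroblasts with aldosterone medium, at 5.48, 7.45 and 5.14 CPM in C57 and 3.64, 2.65 and 2.94 CPM in mdx (log2 change -0.97, SE 0.20, adjusted p = 0.0281), and the libraries did not overlap. The call was lost without C57 replicate 1 (adjusted p = 0.0692), C57 replicate 2 (0.147), mdx replicate 2 (0.1) or mdx replicate 3 (0.0872). With vehicle medium the change was -0.53 (adjusted p = 0.277). Slc1a5 and Slc3a2, which did not pass, had log2 changes of -0.26 and -0.24 with aldosterone medium and of -0.24 and -0.01 with vehicle medium. Of 141 tested genes in the 7 lists of other transporters, amino acid sensing and amino acid use, 0 passed between the lines in any of the 4 comparisons in edgeR. At an unadjusted p below 0.05 there were 27 and 26 in myotubes and 15 and 25 in fibroblasts (under vehicle and aldosterone). Of all genes, 2273 and 2469 of 15763 in myotubes and 1997 and 2308 of 16671 in fibroblasts were below it. DESeq2 called 3, 4, 1 and 5 of the 141, beside 376, 459, 475 and 544 of all genes.

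**Figure D3:**
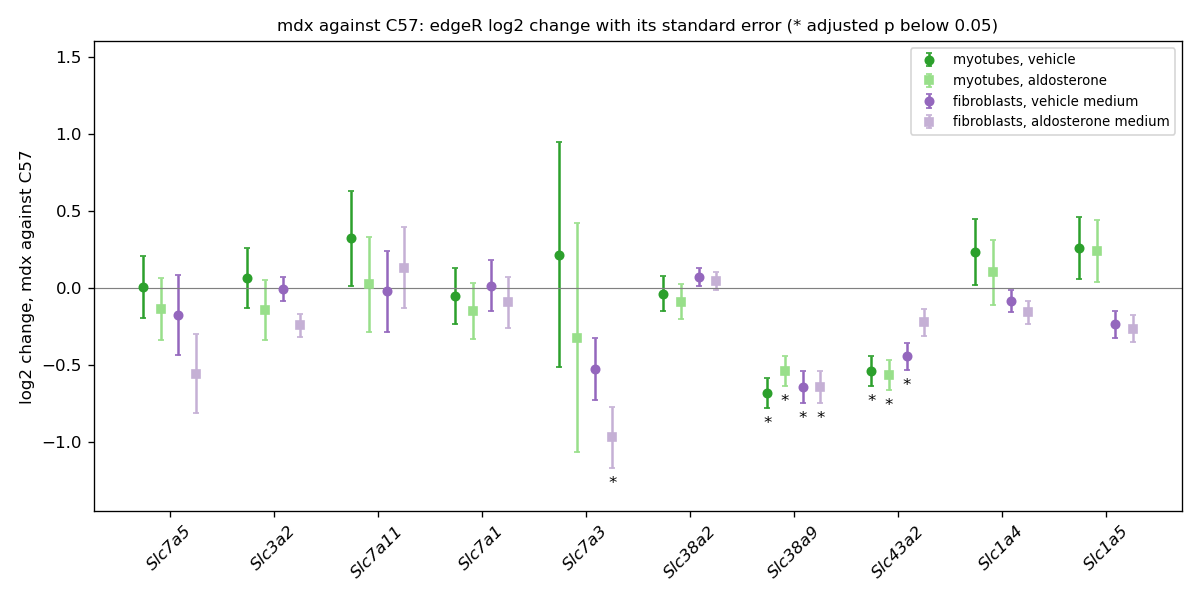
Log2 change of mdx against C57 (vertical axis) for each transporter gene in the 4 comparisons, with bars of 1 standard error and an asterisk where the adjusted p was below 0.05. Slc38a9 is lower in all 4, between -0.68 and -0.54, Slc43a2 passes in 3, and the bars of Slc7a3 in myotubes span 0.

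A few genes near Slc38a9 were also among the line-dependent ones. Of 11 other genes tested in myotubes with any part within 500 kb, 2 were lower in mdx under vehicle and 1 with aldosterone. In fibroblasts 13 were tested and 1 was lower under each medium. Of all genes 0.222% and 0.19% were lower in myotubes and 0.588% and 0.636% in fibroblasts (under vehicle and aldosterone). The neighbours were looked at after the result for Slc38a9 was known. Ddx4, a helicase gene of germ cells whose start site lies at -8.28 kb from that of Slc38a9, held 20, 59 and 26 counts in C57 and 4, 1 and 1 counts in mdx vehicle myotubes (log2 change -3.87, adjusted p = 0.00558). With aldosterone it held 30, 28 and 30 counts and 6, 2 and 6 counts (log2 change -2.18, adjusted p = 0.0718). Its level did not exceed 1.88 CPM. In fibroblasts Ddx4 did not pass the filter on low counts and was not tested. With vehicle medium it held 1, 5 and 7 counts in C57 and 3, 9 and 0 counts in mdx. With aldosterone medium it held 2, 8 and 4 counts in C57 and 8, 10 and 4 counts in mdx. Esm1, the endocan gene, lies 549 kb away by start site. It was at 42.0, 48.2 and 59.1 CPM in C57 and 0.406, 0.161 and 0.489 CPM in mdx fibroblasts with vehicle medium (log2 change -7.31, adjusted p = 2.05e-06). In vehicle myotubes it was at 8.80, 19.4 and 27.7 CPM and 0.345, 0.561 and 0.853 CPM (log2 change -5.09, adjusted p = 0.00364). Genes lying between them, such as Mtrex (0.07 in vehicle myotubes) and Plpp1 (0.10), did not pass. Ankrd55, which lies on the other side of Slc38a9, was higher in mdx fibroblasts with vehicle medium (log2 change 1.40, adjusted p = 0.037). Around Slc43a2, 24 genes were tested in myotubes and 27 in fibroblasts, and the 1 that passed was higher in mdx, in fibroblasts with vehicle medium.

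**Figure D4:**
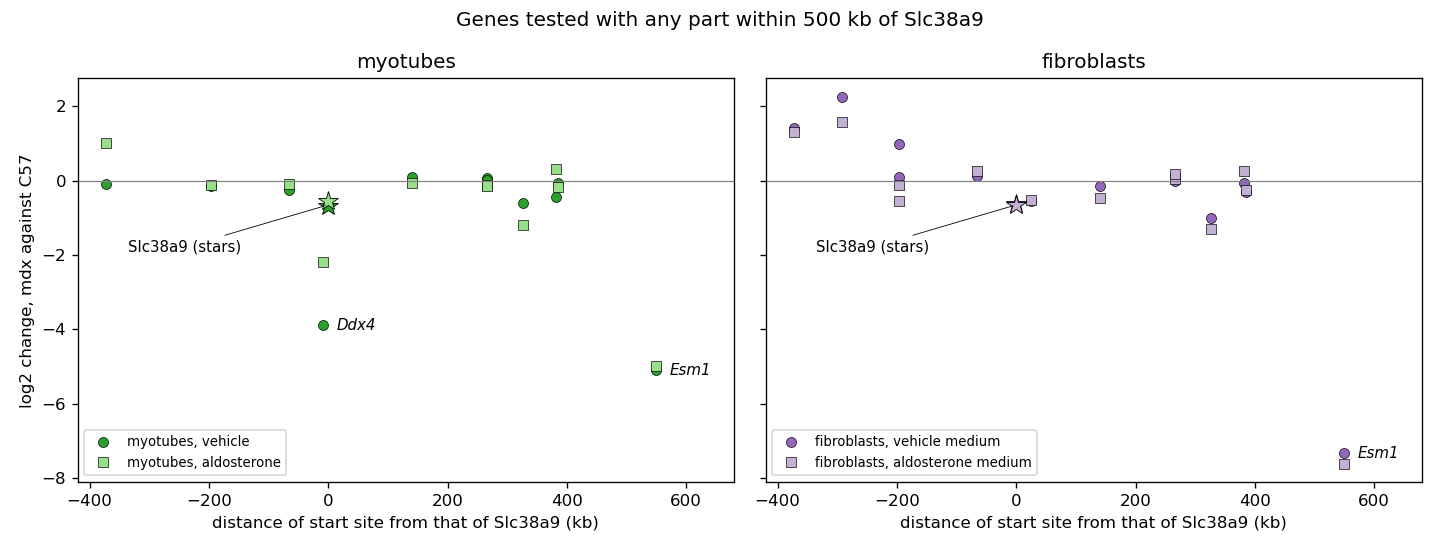
Log2 change of mdx against C57 (vertical axis) for genes tested with any part within 500 kb of Slc38a9, by the distance of their start site from that of Slc38a9 in kb (horizontal axis); stars are Slc38a9 itself. Ddx4, at -8.28 kb, lies at -3.87 in vehicle myotubes, Esm1, 549 kb away, lies at -5.09 there and at -7.31 in fibroblasts with vehicle medium, and the genes between them lie near 0 or, as Ccno does, below it without passing.

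In myotubes, the aldosterone comparison asked whether the transporters differ after exposure to the hormone, 15 h after its removal. Slc7a1, the arginine and lysine carrier, and Slc7a11, the cystine exchanger, rose slightly in C57 myotubes when cultures were paired by their number. Same-numbered myotube cultures deviated together (correlations of 0.359 to 0.704), so they were treated as paired. For C57 cultures 1, 2 and 3 these were 0.704, 0.495 and 0.359, and the best with another number was -0.429, 0.350 and 0.350. In mdx they were 0.673, 0.613 and 0.482, and the best with another number was -0.176, -0.161 and -0.161. The C57 pairing is thus least clear for culture 3. In the paired fit 2 of 10 members passed in C57, both higher, beside 2.52% of all genes higher and 4.98% in either direction. In mdx 0 of 10 passed, beside 2.33% (1 member at an unadjusted p below 0.05, beside 2021 of all 15763 genes, and 0 members by DESeq2 without pairing). As the mean of both genotypes 2 passed, the same 2, beside 4.4% higher and 8.96% in either direction. Without pairing 0 members passed in C57, in mdx or as the mean, with edgeR or DESeq2 (0 at an unadjusted p below 0.05 in edgeR), beside 0.0127%, 0% and 0.216% of all genes. The paired members' median log2 change was 0.05 over the mean of both genotypes, beside 0.0091 over all genes.

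Slc7a1 went from 90.7, 78.0 and 80.0 to 110.0, 90.8 and 100.0 CPM in C57 cultures 1, 2 and 3, and from 104, 67.0 and 67.7 to 112, 75.1 and 83.4 CPM in mdx cultures. It was higher with aldosterone in 6 of 6 cultures. The paired log2 change was 0.27 in C57 (SE 0.06, adjusted p = 0.00569), 0.19 in mdx (SE 0.06, adjusted p = 0.111) and 0.23 as the mean (SE 0.04, adjusted p = 0.000661). The mean passed in all 7 paired settings, whichever culture was left out, with log2 changes of 0.21 to 0.25 and adjusted p up to 0.0128. The C57 call alone was lost without C57 culture 3 (adjusted p = 0.0752). Slc7a11 went from 15.6, 13.6 and 13.7 to 22.5, 15.4 and 17.1 CPM in C57 and from 26.3, 13.7 and 12.9 to 26.8, 14.6 and 14.3 CPM in mdx, also higher in 6 of 6. The paired log2 change was 0.34 in C57 (SE 0.09, adjusted p = 0.0278), 0.08 in mdx (adjusted p = 0.812) and 0.21 as the mean (adjusted p = 0.0444). The mean of Slc7a11 was lost without any 1 culture except C57 culture 2 (adjusted p 0.0987 to 0.214), and its C57 call was lost without C57 culture 1 (adjusted p = 0.321) or 3 (0.109). The summed leukocyte markers of C57 cultures 1, 2 and 3 were 13.2, 469 and 275 CPM with vehicle and 12.8, 369 and 209.98 CPM with aldosterone, and their part in these changes was not tested.

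The other members did not pass. Slc1a4 had a paired mean log2 change of 0.21 (adjusted p = 0.0506, higher in 5 of 6 cultures; it passed without mdx culture 1, at 0.28 with adjusted p = 0.0168) and Slc7a5 of 0.11 (adjusted p = 0.114, 5 of 6). Slc3a2 had 0.20 in C57 (higher in 3 of 3) and -0.0041 in mdx (1 of 3). Slc43a2 had -0.14 (adjusted p = 0.114), higher in 1 of 6. Slc38a2 was at -0.01 with an SE of 0.04, and Slc1a5 was at -0.0022 with an SE of 0.07. Slc7a3 was higher in 3 of 3 C57 cultures and lower in 3 of 3 mdx cultures, with log2 ratios of 0.31, 0.23 and 0.05 and of -0.29, -0.21 and -0.14. The difference of its change between genotypes had a paired log2 value of -0.46 and an adjusted p of 0.953. No member passed that test of the difference (0 of 10, adjusted p at least 0.929, beside 0.0444% of all genes, and 0 by DESeq2). At an unadjusted p below 0.05 there was 1 member in the paired fit, beside 835 of all 15763 genes. Without C57 culture 2 the paired mean called 4 members, Slc7a1, Slc7a11, Slc1a4 (log2 change 0.26, adjusted p = 0.00831) and Slc7a5 (0.12, adjusted p = 0.049).

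**Figure D5:**
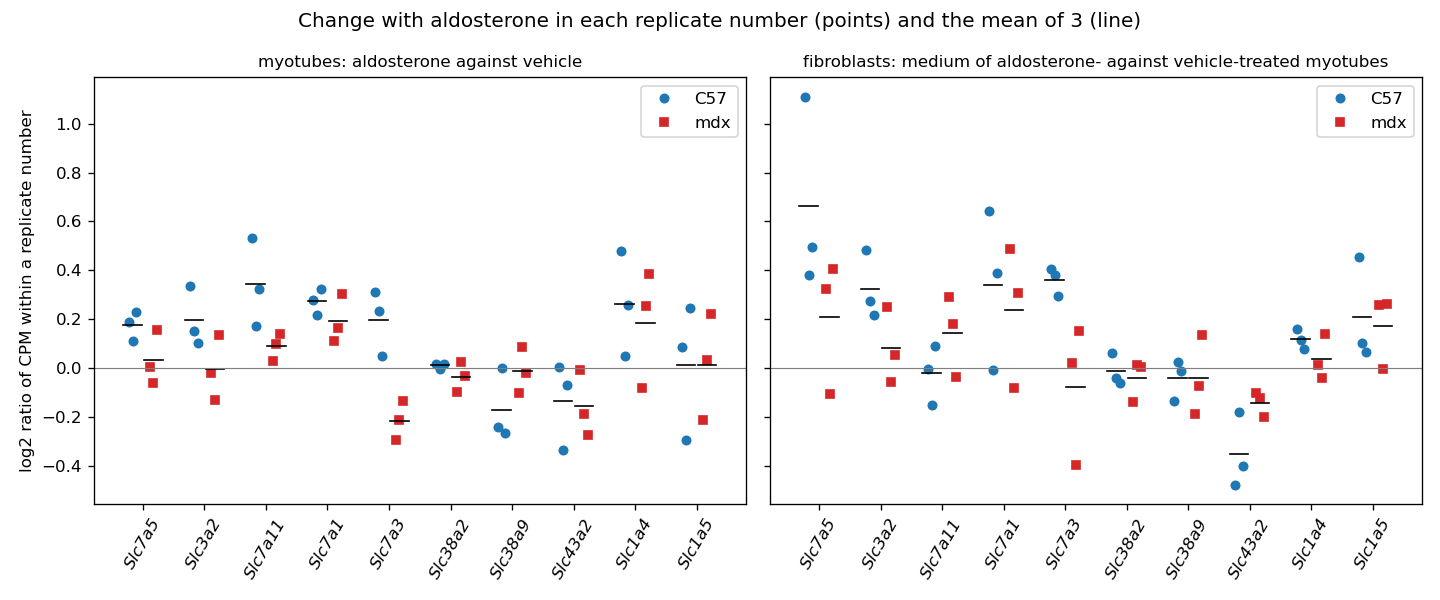
Log2 ratio of CPM with aldosterone over vehicle for libraries of the same replicate number (vertical axis) for each transporter gene, in myotubes (left) and in fibroblasts given their medium (right); points are replicate numbers, circles C57 and squares mdx, and lines are means of 3. In myotubes Slc7a1 and Slc7a11 lie above 0 in 6 of 6 cultures, and in fibroblasts, where the C57 numbers do not pair the libraries, Slc43a2 lies below 0 in 6 of 6.

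Genes of the amino acid response were higher in the same paired fit, in which 4.4% of all genes were higher and 8.96% passed in either direction. Of 22 genes of the amino acid response and ATF4, 14 were higher and 0 lower as the mean of both genotypes, with 12 higher in C57 and 6 in mdx, and a median log2 change of 0.22 beside 0.0091 over all genes. Trib3, a pseudokinase induced by ATF4, had 0.50 (adjusted p = 4.32e-07), Chac1, which degrades glutathione, had 0.48 (adjusted p = 3.25e-06), Phgdh, the first enzyme of serine synthesis, had 0.30 (adjusted p = 1.54e-05) and Atf4 itself had 0.28 (adjusted p = 4.14e-05). Among 25 other transporters tested, 1 was higher and 2 lower. Slc7a8, the LAT2 light chain, fell from 34.3, 31.6 and 30.2 to 25.6, 25.0 and 24.6 CPM in C57 and from 17.4, 29.6 and 34.1 to 13.6, 24.3 and 26.9 CPM in mdx (log2 change -0.34, adjusted p = 0.000123), and was lower in 6 of 6 cultures. Slc6a15 was higher (0.78) and the taurine carrier Slc6a6 lower (-0.13).

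Beside the same shares of all genes, 4.4% higher and 8.96% in either direction, 3 of 39 genes of amino acid sensing by mTORC1 were higher (Sesn2, Rragd and Sar1b, log2 changes 0.28, 0.17 and 0.14) and 0 lower, and Sesn2 also belongs to the amino acid response list. Of 17 tested genes of cystine, glutathione and NRF2, 1 was higher and 2 lower, with Nqo1 at -0.47 (adjusted p = 3.87e-06). Of 14 genes of glutamine, glutamate and branched-chain amino acid use, 3 were higher, Glul (0.29), Glud1 (0.16) and Gpt2 (0.16). Of 15 tested genes of arginine and polyamine use, 4 were higher and 3 lower. Gamt, which completes creatine synthesis, fell (-0.53, adjusted p = 1.04e-07) and Odc1, which makes putrescine from ornithine, rose (0.30, adjusted p = 1.12e-05). Of 10 mitochondrial carriers 0 passed in edgeR with or without pairing (0 at an unadjusted p below 0.05 without it, and 0 by DESeq2). Without pairing 0 of the 141 genes in these lists passed in edgeR as the mean of both genotypes. At an unadjusted p below 0.05 there were 15 of the 141, beside 1167 of all 15763 genes. DESeq2 called 3 of the 141, beside 168 of all genes.

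The mdx myotube culture 1 stood above mdx cultures 2 and 3 in both treatments for 8 members, all but Slc1a5 and Slc43a2. For Slc38a9 the margin with aldosterone was slight, at 11.26, 11.01 and 11.20 CPM in cultures 1, 2 and 3. The share of all genes for which culture 1 was highest was not counted, so the counts here have no such background. Slc7a3 lay at 7.52, 1.26 and 1.49 CPM in mdx vehicle cultures 1, 2 and 3 and at 6.14, 1.09 and 1.36 CPM with aldosterone. Slc7a11 lay at 26.3, 13.7 and 12.9 and 26.8, 14.6 and 14.3 CPM, Slc3a2 at 209.9, 141 and 131 and 207, 129 and 144 CPM, and Slc7a5 at 389.7, 242 and 279 and 391, 233 and 310.5 CPM. The gap was widest for Slc7a3. Slc38a2 lay at 218, 164 and 173 and 204, 166 and 169 CPM. On log2(CPM + 1), the median member of culture 1 lay 0.60 above the mean of cultures 2 and 3 with vehicle and 0.42 with aldosterone (9 of 10 members above in each). The median of the 22 amino acid response genes lay 0.55 and 0.52 above (18 and 19 of 22), and the median over all expressed genes lay within 0.02 of 0. Trib3 was at 87.4, 30.8 and 29.6 CPM in the mdx vehicle cultures and Atf4 at 328, 229 and 214 CPM. Without both libraries of culture 1, the line comparisons in myotubes gave Slc43a2 a log2 change of -0.49 under vehicle (adjusted p = 0.119), Slc38a9 -0.54 with aldosterone (adjusted p = 0.0513) and Slc7a3 -1.54 with aldosterone (adjusted p = 0.0477).

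Across the 12 myotube libraries, the 5 genes whose log2 levels followed each of 3 members most closely (Pearson r over libraries, out of 10306 protein-coding genes at a mean of at least 5 CPM) were as follows. For Slc7a5 they were Prep (0.976), Rrn3 (0.976), Slc38a1 (0.972), Urb2 (0.966) and Eif1ad (0.966). For Slc7a11 they were Utp4 (0.984), Wars (0.979), Aldh18a1 (0.977), Sinhcaf (0.973) and Tmem176a (0.968). For Slc38a2 they were Stx11 (0.964), Fgf21 (0.948), Eif1ad (0.937), Cxadr (0.931) and Dync1li1 (0.929). The libraries share cultures across treatments, and mdx culture 1 is high for all 3 members, so these values are a description. Without both libraries of that culture, a setting added after seeing the data, r over the other 10 ran from 0.947 to 0.979 for Slc7a5, from 0.911 to 0.969 for Slc7a11 and from 0.909 to 0.952 for Slc38a2.

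The medium comparison asked whether fibroblasts given the medium of aldosterone-treated myotubes change their transporters. No member passed in C57 (0 of 10), in mdx (0 of 10) or as the mean of both (0 of 10), beside 0, 0 and 0.012% of all genes. At an unadjusted p below 0.05 there were 4, 0 and 5 members in edgeR, beside 1996, 818 and 2540 of all 16671 genes. DESeq2 called 1 member (Slc3a2), 0 and 2 (Slc3a2 and Slc43a2), beside 74 of all genes in C57 and 293 as the mean. Pairing by number also gave 0 in each, beside 0, 0 and 0.018%. Same-numbered libraries deviated together in mdx (correlations of 0.106 to 0.299) and not in C57 (-0.02 to 0.12).

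Slc43a2 and Slc3a2 had the lowest p-values of the members in C57 and as the mean of both genotypes. Slc3a2 lay at 115, 140.4 and 138 CPM with vehicle medium and 160.1, 170.0 and 159.9 CPM with aldosterone medium in C57, which did not overlap (log2 change 0.32, SE 0.08, adjusted p = 0.327), and at 125, 130.4 and 135 CPM and 148, 125 and 141 CPM in mdx, which did. DESeq2 called the C57 change (adjusted p = 0.0461). Slc43a2 lay at 34.1, 27.7 and 29.2 CPM with vehicle medium and 24.5, 24.4 and 22.2 CPM with aldosterone medium in the C57 fibroblasts (log2 change -0.36, SE 0.09, adjusted p = 0.327), and the mean log2 change over both genotypes was -0.25 (adjusted p = 0.173; 0.0621 with pairing; 0.0382 by DESeq2). It was lower in 6 of 6 numbered pairs, but the C57 numbers did not pair the libraries, which limits this count and the value with pairing. Slc7a5 lay at 56.4, 110.3 and 84.1 CPM with vehicle medium and 122, 144 and 119 CPM with aldosterone medium in C57, with no overlap, and its spread with vehicle medium was wide (log2 change 0.62, SE 0.26, adjusted p = 0.4). Slc1a5 had a mean change of 0.19 (adjusted p = 0.213), Slc7a1 of 0.30 (adjusted p = 0.287) and Slc38a2 of -0.03 (SE 0.04). Leaving out mdx aldosterone medium replicate 2 raised the calls for the mean from 2 to 950 of all genes and from 0 to 3 members, Slc3a2 (log2 change 0.24, adjusted p = 0.018), Slc43a2 (-0.27, adjusted p = 0.0303) and Slc1a5 (0.23, adjusted p = 0.0198). That library was below the other 2 of its group for 6 of the 10 genes, with Slc7a5 at 104, 62.8 and 95.1 CPM. It was above them for Slc7a11, Slc38a2 and Slc43a2, and the share of all genes lowest in it was not counted. The amino acid response list had a median log2 change of 0.21 in C57 and 0.085 in mdx, with 0 of 22 genes passing in either in edgeR. At an unadjusted p below 0.05 there were 11 and 1 of the 22, beside 1996 and 818 of all 16671 genes. DESeq2 called 1 and 0 of the 22, beside 74 of all genes in C57. For the difference between genotypes no member passed (0 of 10 in edgeR and DESeq2, beside 0 of all genes in edgeR). At an unadjusted p below 0.05 there was 1 member, beside 391 of all 16671 genes.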

How the data were processed

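Bulk poly(A) RNA sequencing measured transcripts in 24 libraries, 8 groups of 3. The authors deposited counts per gene. The submitters' processing notes name featureCounts 1.5.0-p3 and the build mm39. The library kit, per the labels' protocols, did not mark strand. The aligner and annotation were not given in the sources used here. Each library's deposited FPKM values were checked to be its counts per gene length up to 1 constant. That constant was 1.00 to 1.14 in myotubes and 0.884 to 0.946 in fibroblasts. FPKM values were used to compare levels between genes and to describe some genes in both cell types. No test was run on them, and FPKM levels of 1 gene in the 2 cell types carry that difference of scale.

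Genes passing edgeR's filterByExpr (15763 in myotubes, 16671 in fibroblasts, 17435 over the vehicle libraries of both) were scaled by TMM and tested with edgeR 4.0.16 (quasi-likelihood, robust, R 4.3.3) with Benjamini-Hochberg adjustment over all genes. All groups of a cell type shared 1 estimate of the spread, and cell types were compared in a fit over the 12 vehicle libraries. Alternatives were a replicate block, DESeq2 1.42.0, RLE scaling, no filter, and each library left out. With the block, both libraries of a replicate number in a genotype were left out together. The test was also run on simulated counts, and the outcome is not given here. Counts for the paired fit were drawn with a culture effect and a reduced spread, so they cannot show whether pairing holds in these data. For single genes a direction was counted as reversed only where the change passed.

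Replicate numbers were taken as pairing where every same-numbered pair's deviations correlated above 0.1. That held for vehicle and aldosterone myotubes (0.359 to 0.704 in C57, 0.482 to 0.673 in mdx) and for mdx fibroblasts. It did not hold for C57 fibroblasts, between genotypes or between cell types. The 10 members, the gene lists and the tests were chosen with earlier results of these data known. All members are named, and of each list up to 4 genes that passed, by smallest adjusted p. Other genes named (Ddx4, Esm1, Mtrex, Plpp1, Ccno, Ankrd55, and Atf4 and Trib3 by culture) were chosen after their values were seen. The alternative without both libraries of mdx myotube culture 1 was chosen after seeing the data. Promoter sequences are RefSeq's on GRCm38.p6, and no coordinate was moved between builds. A result on 1 listed gene is not reported here.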

Additional observations from a re-analysis of the deposited data

How the results depend on the processing

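Counts of genes past the threshold moved with the settings. For aldosterone in C57 myotubes 2 genes passed, against 785 with the replicate block (2 members), 26 without the filter and 57 with DESeq2. In mdx myotubes it was 0, against 367, 16 and 19, and for the mean of both genotypes 34, against 1412 (2 members), 84 and 168. The difference between genotypes gave 0 and, with the block, 7. For mdx against C57 in vehicle myotubes it was 57, against 433, 156 and 376, and in aldosterone myotubes 49, against 397, 163 (1 member) and 459. The block in the line comparisons was the bare replicate number across genotypes. Those numbers did not pair the libraries, so 433 and 397 are not counts from paired cultures. In fibroblasts the block moved no count by over 1.5 times. Aldosterone medium in C57 fibroblasts gave 0, against 65 (1 member) without the filter and 74 (1 member) with DESeq2. In mdx fibroblasts it gave 0 against 2 without the filter, and for the mean 2, against 215 (2 members) without the filter and 293 (2 members) with DESeq2. For mdx against C57 with vehicle medium it was 184, against 436 and 475, and with aldosterone medium 205, against 452 (4 members) and 544.

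Leaving out 1 library at a time gave, for aldosterone in myotubes, 0 to 0 genes in C57 and in mdx, 14 to 47 for the mean (0 to 0 members) and 0 to 0 for the difference. With the block, here and below, both libraries of a replicate number in a genotype were left out at a time. The ranges were then 401 to 857 (0 to 4 members), 101 to 300 (0 to 0 members), 739 to 1713 (1 to 4 members) and 2 to 23. With 1 library left out, the line comparison gave 20 to 104 (0 to 2 members) in vehicle and 12 to 37 (0 to 0 members) in aldosterone myotubes. In fibroblasts it gave 93 to 249 (1 to 2 members) and 89 to 170 (1 to 2 members). Aldosterone medium gave 0 to 0 in C57 (2 to 13 with the block), 0 to 24 in mdx (0 to 305 with the block), 1 to 950 for the mean (0 to 3 members; 0 to 1786 and 0 to 3 members with the block) and 0 to 0 for the difference (0 to 2 with the block). Cell types gave 12440 to 12672 (5 to 6 members) in C57 and 11556 to 12181 (6 to 8 members) in mdx.

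Over single members, 1952 values kept their side of the threshold, 32 lost it, 35 gained it and 1 reversed. The reversal was Slc7a3 in mdx myotubes against fibroblasts, whose log2 change, 0.42 with all libraries, ran from -1.01 (without mdx vehicle myotube replicate 1) to 0.79 (without replicate 2). Without both libraries of mdx myotube culture 1, 174 genes passed between the lines in aldosterone myotubes. The cause of these moves was not tested. Low counts limit Ddx4 and Slc7a3 most.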
